A study of Rattus norvegicus with 8 samples.

Results

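The genes of the voltage-gated calcium channels (symbols beginning with Cacn), the voltage-gated sodium channels (Scn followed by a digit) and the HCN channels (Hcn followed by a digit) were followed across 8 libraries of rat hypothalamus. They comprised 33 of the 12255 genes and 517 of the 73922 polyadenylation sites with reads, chosen by gene symbol and by the protein-coding class alone. The libraries came from adult male Long-Evans rats, for which the labels name no genetic change. The 4 control rats ate standard chow (0.51 kcal/g from fat) and the 4 obesity rats had free access to a high fat diet (1.71 kcal/g from fat), both for 36 days. The model was thus obesity made by diet in an outbred strain, and the labels give neither body weight nor food intake. The assay was WTTS-seq, which reads the 3′ ends of polyadenylated RNA, so that each read marks 1 RNA end and each site is a place where such ends pile up. The labels number the rats 1 to 4 in each group without saying what a number shares. Libraries of the same number deviated from their group means together, so results of a model that also holds the number (a replicate block) are added where they changed a call.

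Voltage-gated channels open when the membrane potential changes and carry the currents of the neuronal action potential. Sodium channels start and carry the spike, calcium channels turn it into calcium entry that drives transmitter and hormone release and gene expression, and HCN channels open on hyperpolarization and set pacemaking and resting excitability. Calcium channels have a pore-forming subunit (Cacna1 genes), which in the high-voltage-activated kinds comes with an alpha-2-delta and a beta subunit while T-type pores can work without them, and each sodium channel has a pore-forming subunit with beta subunits. Most Cacng genes of brain encode TARPs, which are partners of AMPA-type glutamate receptors and not of calcium channels.

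The channel genes held 72093 of 13341135 reads (0.540%), and the library totals ran from 1417531 to 1957726 reads. Between 6941 and 10888 reads per library fell on them. Control library 1 had no read at 118 of the 517 sites, against 27 to 66 in the other libraries. Every site kept in the table has at least 30 reads over the 8 libraries, and the median channel site has 59, so single sites are shallow. The tissue label was checked against 12 hypothalamic genes (peptides such as Avp, Oxt, Pomc and Hcrt and the factor Nkx2-1), which were all in the table and summed to 1224 to 1647 CPM (read counts scaled to the effective library size) in control and 1022 to 1270 in obesity. Avp alone gave 812 to 1174 CPM in control and 601 to 798 in obesity, and Nkx2-1 had 0 reads in control library 1 and obesity library 4. Neuronal markers (7 of 8 in the table) summed to 4699 to 5254 and 4062 to 5352 CPM. The 9 oligodendrocyte markers, all present, summed to 17531, 18121, 22229 and 17338 CPM in control libraries 1 to 4 and to 13399, 20865, 17950 and 17414 in obesity libraries 1 to 4, and the 8 astrocyte markers to 4705 to 6889 and 4176 to 6086. Both glial sums were lowest in obesity library 1 and, within obesity, highest in library 2, and their part in the values below was not tested. Markers of neighbouring tissue also varied between libraries. The anterior pituitary markers (3 of 6 in the table) summed to 55.8, 21.9, 17.2 and 17.9 CPM in control and 26.7, 124, 41.3 and 5.95 in obesity, and of these Gh1, which encodes growth hormone, had 69.1 CPM in obesity library 2 and at most 0.783 elsewhere. Lhb was also highest there (46.1 CPM, at most 6.26 elsewhere), whereas Cga was low there (8.74 CPM) and highest in control library 1 (50.2). The 7 thalamus markers, all present, summed to 279, 380, 441 and 280 in control and 163, 379, 238 and 253 in obesity. Ttr, the 1 of 3 choroid plexus markers in the table, had 95.2 CPM in obesity library 4 and 0 to 1.49 in the other libraries. Obesity library 2 thus had the highest pituitary sum of all libraries and the highest thalamus sum of its group, and the part of these markers in the values below was not tested either. Whether a difference comes from fewer cells of a type or from less RNA per cell cannot be told apart in such bulk samples.

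No channel gene passed an adjusted p of 0.1 (edgeR's quasi-likelihood test with Benjamini-Hochberg adjustment over all genes), and none of the 12255 genes did (0%). At an unadjusted p under 0.05 the calls were 4 of the 33 channel genes, all higher in obesity, where 5.3% of all genes were called and 2.77% were called higher. These were the pore genes Cacna1a, Cacna1c and Cacna1d and the alpha-2-delta gene Cacna2d3. DESeq2's Wald test also gave 0 adjusted and 4 unadjusted calls. The number of calls depended on the libraries used. It was 0 without control library 3, obesity library 1 or obesity library 4, 1 without control library 1 and 2 without obesity library 3. Without control library 2 or control library 4 it was 3, and without obesity library 2 it was 5. The log2 fold changes of the 4 genes stayed above 0 in each of these fits. With the replicate number as a block edgeR gave 0 channel genes past the adjusted threshold (0.122% of all genes did) and DESeq2 gave 2, Scn2b (adjusted p = 0.0415) and Cacng7 (0.0978). The share of all genes that DESeq2 called, with or without the block, is not given here. In the same edgeR fit 8 genes had an unadjusted p under 0.05, 6 of them higher and 2 lower, where 10.9% of all genes were called (5.03% higher and 5.83% lower). The 4 further genes were Cacng7 and Cacnb2, which were higher, and Scn2b and Scn1a, which were lower. With the block and without both libraries numbered 2, the adjusted p from edgeR was under 0.1 for 5 channel genes, which were Cacna1a (0.0157), Cacna1c (0.0157), Cacna2d3 (0.0495), Cacng7 (0.0177) and Scn2b (0.00155). How many of all genes passed in that fit is not given here, so these calls have no background beside them. Over all 33 genes the median log2 fold change (obesity minus control) was 0.13, with 22 genes above 0 and 11 below, and over all genes tested it was 0.01.

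**Figure D1:**
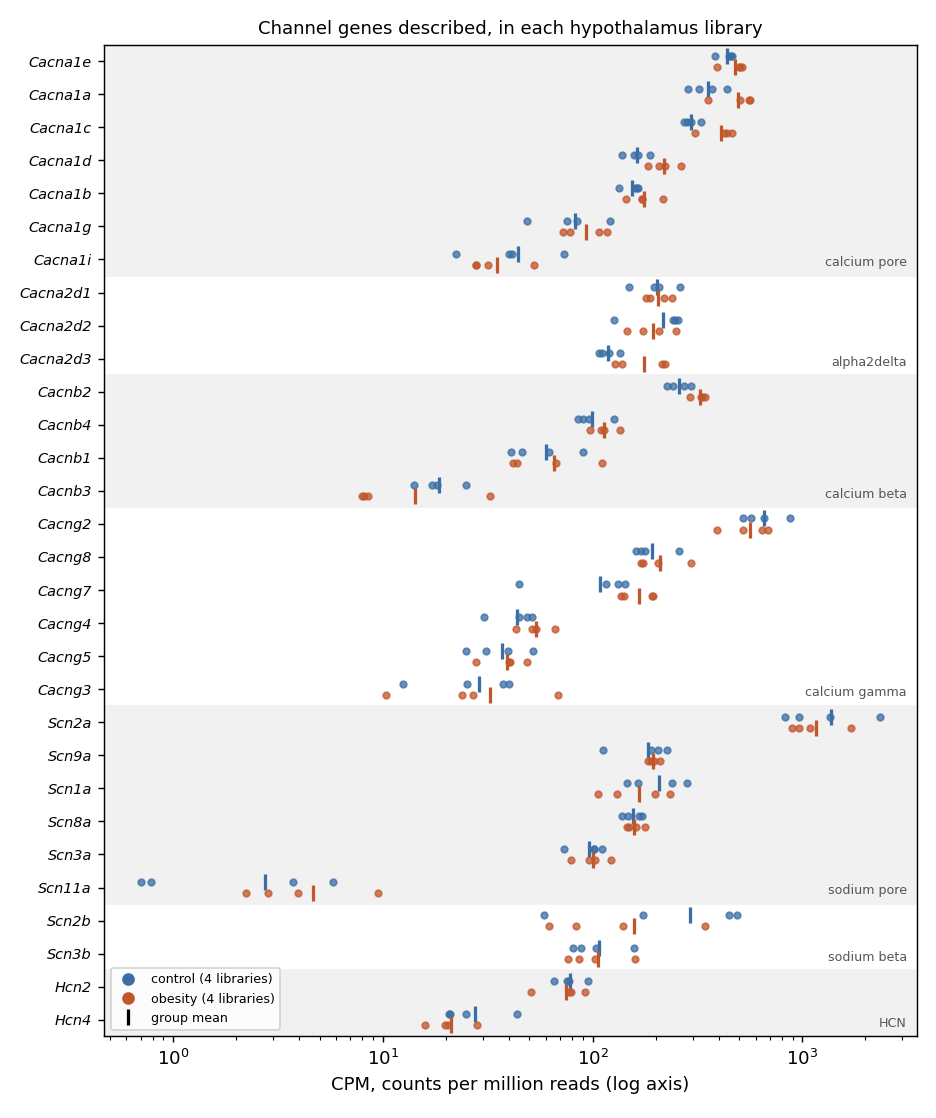
CPM of the channel genes described (log axis) in the 4 control and 4 obesity libraries, grouped by role, with a vertical mark at each group mean. The groups overlap for the genes drawn, and Scn2b spreads over an 8.34-fold range among the libraries.

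The pore-forming calcium channel genes took 19832 reads at 191 sites. Of these 7 genes 6 had a log2 fold change above 0 and 3 had an unadjusted p under 0.05, all higher. Their summed level was 1529 ± 88.6 CPM in control and 1903 ± 251 in obesity (mean ± SD, n = 4 each).

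Cacna1a encodes the pore of the P/Q-type channel, which triggers transmitter release at many central synapses. It stood at 285, 369, 322 and 440 CPM in control libraries 1 to 4 and at 554, 353, 503 and 562 in obesity libraries 1 to 4. Obesity libraries 1, 3 and 4 were above every control library, while obesity library 2 lay among the controls. The log2 fold change was 0.48 (SE 0.21, unadjusted p = 0.0353, adjusted p = 0.904 by edgeR's quasi-likelihood test). These values hold the sites of both strands. On the gene's own strand alone obesity library 1, at 393 CPM, was below control library 4, at 420.

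Cacna1c, which encodes an L-type pore that couples calcium entry to gene expression, had 295, 328, 273 and 283 CPM in control and 461, 307, 439 and 424 in obesity. Again obesity libraries 1, 3 and 4 exceeded all controls and obesity library 2 did not. Its log2 fold change was 0.47 (SE 0.19, unadjusted p = 0.0270, adjusted p = 0.904 by edgeR).

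Cacna1d encodes the L-type pore that opens at more negative potentials and takes part in pacemaking. The control libraries had 158, 165, 138 and 187 CPM and the obesity libraries 263, 207, 185 and 222. Obesity library 3 lay just under the highest control, and the obesity library was the higher one at all 4 numbers. Cacna1d had a log2 fold change of 0.43 (SE 0.20, unadjusted p = 0.0473, adjusted p = 0.904 by edgeR).

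Cacna1e, the R-type pore gene and the most read of the 7, passed neither threshold. Its values were 383, 458, 448 and 460 in control and 507, 393, 498 and 515 CPM in obesity, with a log2 fold change of 0.13 (SE 0.18, unadjusted p = 0.490). Obesity library 2 was again the lowest of its group. Among the others, the N-type gene Cacna1b had a log2 fold change of 0.19 (SE 0.21) and the T-type gene Cacna1g 0.18 (SE 0.28). Cacna1i, also T-type, was the 1 pore gene below 0, at -0.34 (SE 0.37). None of these 3 reached an unadjusted p of 0.05 in either fit.

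The 3 alpha-2-delta genes, whose products bring the pore to the membrane and bind gabapentin in the case of Cacna2d1 and Cacna2d2, had unlike values. Cacna2d3 had 107, 120, 110 and 135 CPM in control and 215, 128, 138 and 222 in obesity. Obesity libraries 1 and 4 were well above the controls, whereas libraries 2 and 3 were within or just above them, and each exceeded the control of its own number. Its log2 fold change was 0.57 (SE 0.23, unadjusted p = 0.0255, adjusted p = 0.904 by edgeR). Cacna2d1, the most read of the group, had 150, 261, 207 and 196 in control and 187, 218, 180 and 239 in obesity, a log2 fold change of 0.02 (SE 0.22, unadjusted p = 0.943) whose sign depended on which library was left out. Cacna2d2 had 241, 127, 255 and 247 in control and 250, 146, 207 and 174 in obesity, a log2 fold change of -0.16 (SE 0.25, unadjusted p = 0.522). The libraries numbered 2 were the lowest of both groups for Cacna2d2.

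Beta subunits bind the pore inside the cell and help its surface delivery and gating. Cacnb2, which has more sites than any other channel gene (53), had 226, 274, 242 and 296 CPM in control and 343, 292, 329 and 332 in obesity. The groups overlapped through control library 4 and obesity library 2 only, and obesity was higher at all 4 numbers. The log2 fold change was 0.32 (SE 0.19, unadjusted p = 0.105) without the block and 0.33 (SE 0.15, unadjusted p = 0.0403, adjusted p = 0.428 by edgeR) with it. Cacnb4 and Cacnb1 stood at 0.19 (SE 0.23) and 0.13 (SE 0.34), and Cacnb3, with a single site and 182 reads, at -0.39 (SE 0.51), none with an unadjusted p under 0.05.

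Among the 6 Cacng genes Cacng7, a TARP, had 143, 132, 44.6 and 115 CPM in control and 193, 137, 142 and 195 in obesity. Control library 3 was far below the others, and each obesity library exceeded the control of the same number. For Cacng7 the log2 fold change was 0.61 (SE 0.29, unadjusted p = 0.0525) without the block and 0.70 (SE 0.21, unadjusted p = 0.00290, adjusted p = 0.194 by edgeR) with it. Cacng2, the TARP also called stargazin, was the most abundant of the 6, with 875, 657, 520 and 571 in control and 685, 393, 642 and 524 in obesity. It was lower in obesity at 3 of 4 numbers, with a log2 fold change of -0.22 (SE 0.22, unadjusted p = 0.324). The other Cacng genes ran from 0.09 (Cacng5) to 0.30 (Cacng4), with no unadjusted p under 0.05. Of the Cacng5 reads 80.4% lay on the strand opposite to the gene. Its own-strand sites, with 87 reads, gave a log2 fold change of 1.08 (SE 0.71, unadjusted p = 0.144 by edgeR).

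**Figure D2:**
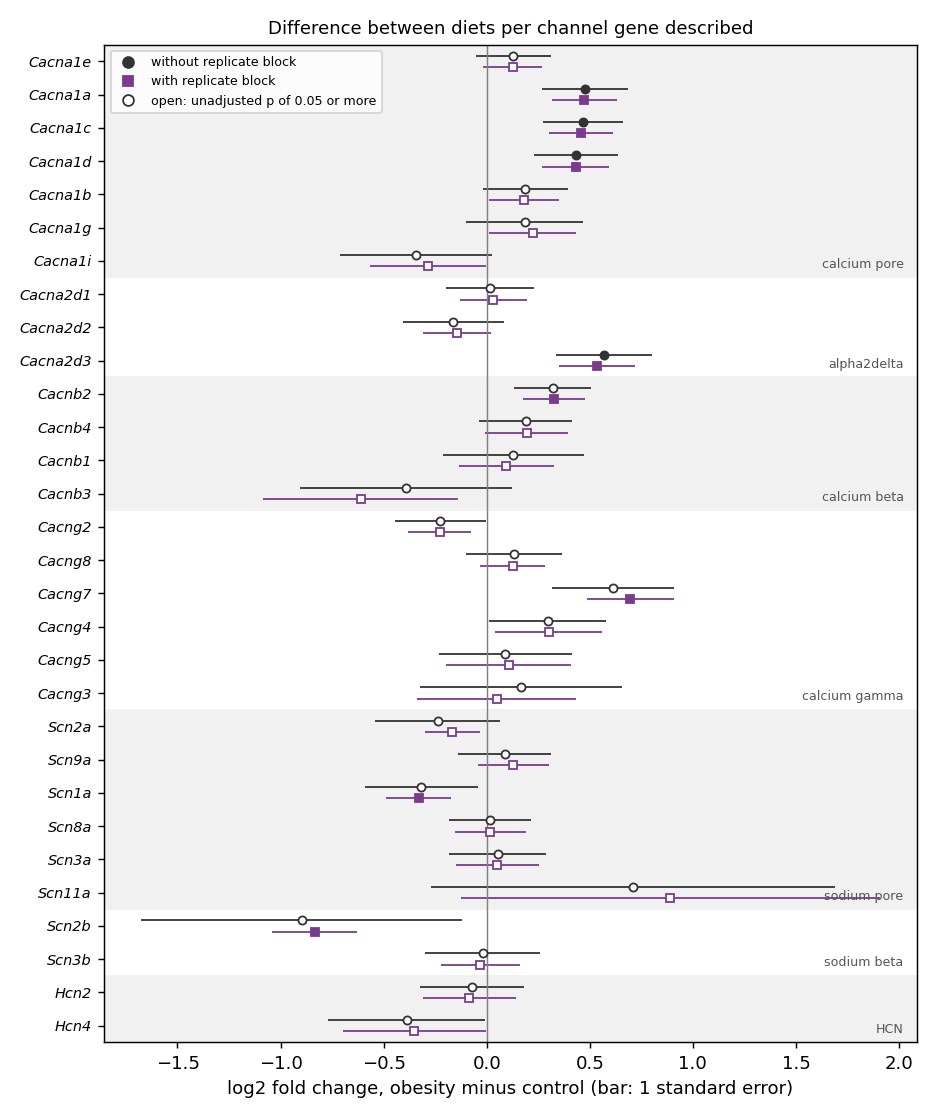
Log2 fold change of the channel genes described, obesity minus control, with 1 standard error, from the fit without the replicate block (circles) and with it (squares). Filled markers have an unadjusted p under 0.05, which 4 circles and 8 squares do, and most bars are shorter with the block.

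Over both strands the sodium channel pore genes had the most reads of the roles, 22363 at 92 sites. Of these, 8382 reads lay at 1 opposite-strand site of Scn2a. Without that site the calcium channel pore genes, with 19832 reads, had more. Among the 7 sodium channel pore genes, 0 had an unadjusted p under 0.05 without the block. Scn1a encodes a pore that inhibitory interneurons rely on. It had 281, 239, 146 and 165 CPM in control and 233, 198, 106 and 131 in obesity. The groups overlapped widely, but the obesity library was the lower one at all 4 numbers, and numbers 1 and 2 were high in both groups. The log2 fold change was -0.32 (SE 0.27, unadjusted p = 0.261) without the block and -0.33 (SE 0.16, unadjusted p = 0.0488, adjusted p = 0.458 by edgeR) with it.

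Scn2a, the pore of excitatory axons, was the most read channel gene over both strands, with 14556 reads. On its own strand it had 6174 reads, fewer than the 7031 of Cacng2. The other 8382 reads (57.6%) lay at a single site on the strand opposite to the gene. This site is on the minus strand at chr3:51820132-51820143 (Rnor_6.0), whereas the other 18 sites of Scn2a are on the plus strand, and it falls between plus-strand sites at chr3:51819705-51819720 and chr3:51821266-51821284. It had 516, 2636, 372 and 1004 reads in control and 602, 1340, 986 and 926 in obesity. The libraries numbered 2 were the highest of both groups. Its log2 fold change was -0.26 (SE 0.49, unadjusted p = 0.604). Whether these reads belong to Scn2a or to an antisense RNA cannot be told apart from the table.

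The plus-strand sites of Scn2a, summed, gave 601, 633, 535 and 608 CPM in control and 445, 647, 403 and 473 in obesity. Obesity libraries 1, 3 and 4 were below every control and library 2 was above them all. For this sum the log2 fold change was -0.27 without the block (unadjusted p = 0.171) and -0.29 with it (unadjusted p = 0.0403). For all 19 sites together it was -0.24 (SE 0.30, unadjusted p = 0.443), and without control library 2 it turned to 0.15.

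The log2 fold changes of Scn8a, Scn3a and Scn9a lay between 0.02 and 0.09, and Scn11a had 42 reads at 1 site, on the opposite strand. For Scn9a 61.8% of the reads lay on the opposite strand, and its own-strand sites gave -0.09 (SE 0.27).

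Scn2b, a beta subunit that is linked to the pore by a disulfide bond and affects its surface level, was the channel gene with the lowest log2 fold change. It had 490, 58.7, 448 and 174 CPM in control and 344, 62, 139 and 83.3 in obesity. Numbers 1 and 3 were high in both groups and numbers 2 and 4 were low, and obesity was lower at numbers 1, 3 and 4 but not at 2. The log2 fold change was -0.90 (SE 0.78, unadjusted p = 0.285) without the block and -0.84 (SE 0.21, unadjusted p = 0.000488, adjusted p = 0.114 by edgeR) with it. With the block, DESeq2's Wald test gave an adjusted p of 0.0415 and edgeR without both libraries numbered 2 gave 0.00155. Most of its reads (85.8%) lay at 1 site, chr8:49427383-49427404 on the plus strand, which had 637, 60, 536 and 179 reads in control and 380, 45, 226 and 86 in obesity. Scn3b stood at a log2 fold change of -0.02 (SE 0.28).

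The HCN genes gave 0 calls in either fit. Hcn2, the most read of them, had 94.7, 75.5, 65.7 and 77.4 CPM in control and 77.2, 78.6, 91.7 and 50.9 in obesity, a log2 fold change of -0.07 (SE 0.25, unadjusted p = 0.786). Hcn4, the slow isoform of pacemaker cells, had 43.8, 20.7, 25.0 and 20.8 in control and 28.2, 19.9, 15.9 and 20.5 in obesity. It was lower in obesity at all 4 numbers, yet its log2 fold change of -0.39 (SE 0.38) did not pass (unadjusted p = 0.321).

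**Figure D3:**
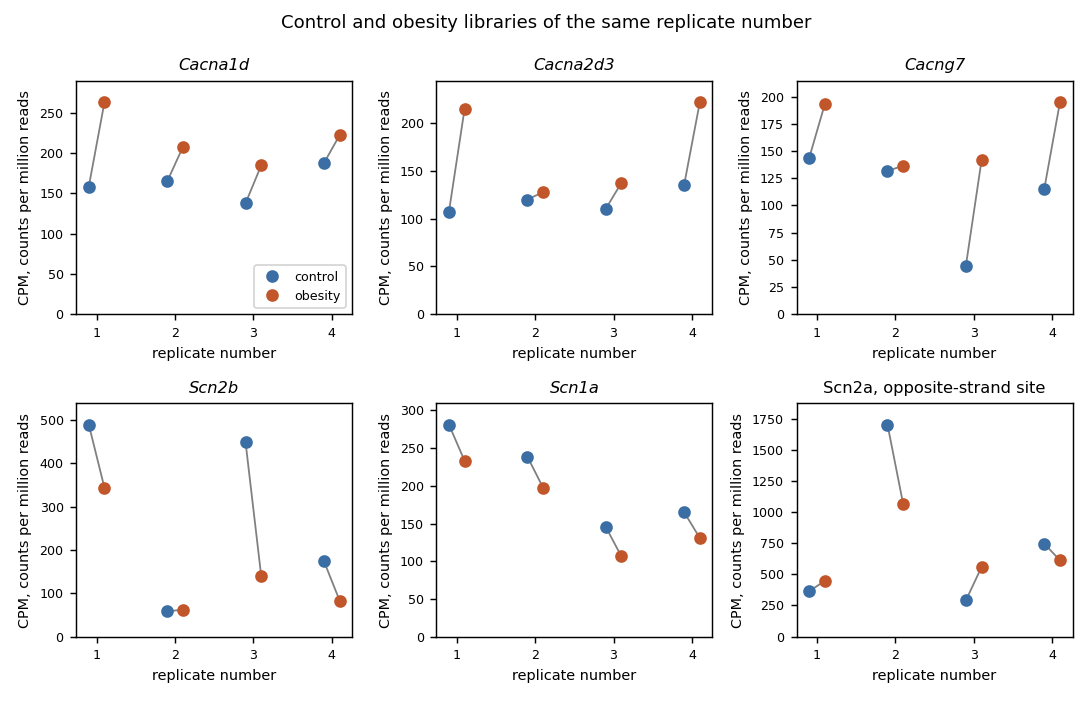
CPM of 5 channel genes and of the opposite-strand site of Scn2a, with each control library (blue) joined to the obesity library of the same replicate number (orange); vertical axes start at 0. Cacna1d, Cacna2d3 and Cacng7 are higher and Scn1a is lower in obesity at all 4 numbers, Scn2b is high at numbers 1 and 3 of both groups, and the Scn2a site is highest at number 2 of both groups.

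Sites on the strand opposite to the gene carried part of the higher sums. In all, 43 of the 517 channel sites lay opposite to their gene and held 12949 reads (18%). Leaving out the Scn2a site, the other 42 summed to 318, 356, 207 and 338 CPM in control and to 701, 273, 497 and 449 in obesity. Obesity libraries 1, 3 and 4 were above every control, and obesity library 2 was not. For Cacna1c the opposite-strand reads went from 40.7 ± 7.33 to 89.7 ± 33.9 CPM, for Cacnb2 they went from 28.9 ± 7.49 to 64.3 ± 31.3, and for Cacna1a from 15.6 ± 5.56 to 58.0 ± 69.7, where obesity library 1 alone had 161 (mean ± SD, n = 4). These sums were not tested on their own.

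With the sites on the gene's own strand only, 3 genes had an unadjusted p under 0.05 (5.12% of all genes did, 2.54% higher), all of them higher. They were Cacna1d (log2 fold change 0.43, unadjusted p = 0.0452), Cacna2d3 (0.59, 0.0232) and Cacng7 (0.65, 0.0446). Cacna1a stood at 0.36 (unadjusted p = 0.0999) and Cacna1c at 0.32 (0.101), although both kept their direction. With the block as well, 8 of 32 genes were called, 5 higher and 3 lower (11% of all genes were called, 4.79% higher and 6.19% lower). Those were Cacna1a (0.36, unadjusted p = 0.0194), Cacna1c (0.32, 0.0464), Cacna1d (0.43, 0.0125), Cacna2d3 (0.56, 0.00600), Cacng7 (0.70, 0.00284), Scn2b (-0.85, 0.000377), Scn1a (-0.35, 0.0372) and Scn2a (-0.29, 0.0403). Cacnb2 was not among them, at 0.18 with an unadjusted p of 0.245.

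**Figure D4:**
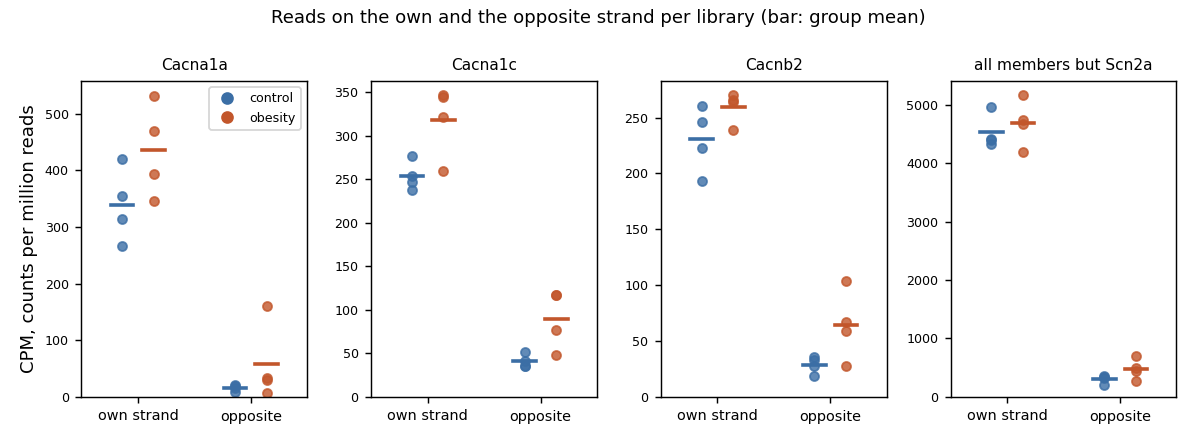
CPM on the gene's own strand and on the opposite strand for Cacna1a, Cacna1c, Cacnb2 and the sum of all channel genes but Scn2a, in 4 control (blue) and 4 obesity (orange) libraries, with a bar at each mean and axes that start at 0. The opposite strand is the smaller part, and there 3 obesity libraries stand above all 4 control libraries in each panel while obesity library 2 does not.

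The 4 genes called over all sites without the block had many sites. The 9 channel genes with 20 or more sites had a median log2 fold change of 0.32, 7 were above 0, and they included all 4 of these genes. The 24 with fewer sites had a median of 0.07, with 15 above 0 and 0 called without the block. Cacng7, with 10 sites, was called higher with the block and in the own-strand fits. Scn2b, with 7 sites, was called lower with the block over all sites and over own-strand sites. Scn2a, with 19 sites, was called lower in the own-strand fit with the block. Among all genes, the 528 with 20 or more sites had a median log2 fold change of 0.17, 76.7% of them were above 0 and 10.6% were called higher at an unadjusted p under 0.05. The 11727 genes with fewer sites had a median of -0.01, with 49.6% above 0 and 2.42% called higher. The part that site number plays in the channel result was not tested.

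Values also differed between the sites of a gene. In Cacng2, on the minus strand of chromosome 7, the 12 sites within 2000 bases of the most 3′ site summed to 738, 462, 420 and 399 CPM in control and 516, 265, 392 and 330 in obesity. The other 18 sites, farther upstream, summed to 136, 196, 100.2 and 172 in control and 169, 128, 250 and 194 in obesity. The means thus went from 505 ± 158 to 376 ± 107 near the 3′ end and from 151 ± 41.7 to 185 ± 51.0 upstream, and the groups overlapped in both sums. Cacna2d2 had a like split, from 189 ± 58.6 to 134 ± 18.3 at its 3 sites near the 3′ end and from 25.1 ± 5.50 to 39.5 ± 8.32 at its 6 other own-strand sites (SD, n = 4). In Cacna1a and Cacna1c nearly all reads lay upstream of the last 2000 bases. There they went from 308 ± 61.1 to 407 ± 98.0 and from 253 ± 17.3 to 313 ± 37.8 CPM. The same split was made in other channel genes and did not recur in most. Cacnb2 went the way of Cacng2, with log2 ratios of the group means of -0.28 near the 3′ end and 0.24 upstream. So did Cacna1a, at -0.11 and 0.40, with 332 reads near the 3′ end. Cacna1c, Cacna1d, Cacna2d3 and Cacng7 had higher means in obesity in both parts, and Scn1a and Scn2b had lower means in both. These splits were made after the values were seen and were not tested.

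**Figure D5:**
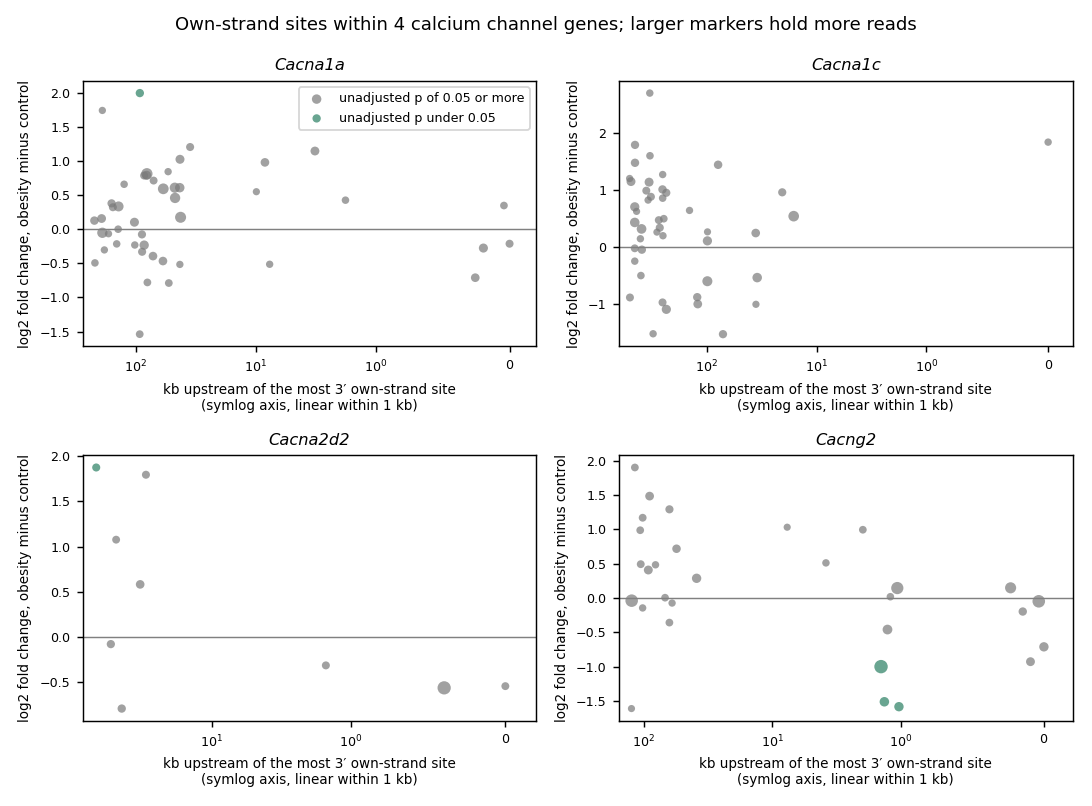
Log2 fold change of each own-strand site of Cacna1a, Cacna1c, Cacna2d2 and Cacng2 against its distance in kb upstream of the most 3′ site of the gene (symlog axis, linear within 1 kb), with larger markers for more reads. Green sites have an unadjusted p under 0.05 without the block; in Cacng2 3 such sites lie between 1 and 2 kb from the 3′ end, all lower in obesity.

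Of the 517 channel sites, 0 passed an adjusted p of 0.1 by edgeR's quasi-likelihood test, as 0.00135% of all sites did. Unadjusted p-values under 0.05 numbered 19, of which 14 sites were higher and 5 lower, where 3.14% of all sites were called (1.72% higher and 1.41% lower). DESeq2 gave 0 adjusted and 21 unadjusted calls. With the block edgeR gave 0 adjusted calls (0.00541% of all sites) and 36 unadjusted ones, 18 in each direction, where 6.09% of all sites were called (2.79% higher and 3.31% lower). DESeq2 with the block gave 3 adjusted site calls, all lower: the main sites of Cacng2 (adjusted p = 0.00345) and Scn2b (0.0187) and a site of Scn2a at chr3:51757988-51758054 (0.0882). The shares of all sites that DESeq2 called are not given here. A log2 fold change above 0 was found at 308 channel sites (59.6%) and at 52.4% of all sites. At 18 sites the groups did not overlap, where 3.11% of all sites did not.

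The higher sites with separate groups and a mean of at least 10 normalized reads were 4. In Cacna2d3 the site at chr16:5334007-5334017 (minus strand) had 0, 10, 1 and 10 reads in control and 18, 22, 18 and 34 in obesity, a log2 fold change of 2.01 (SE 0.83, unadjusted p = 0.0287). Every obesity library exceeded every control there, and the log2 fold change was 2.38 with the block (unadjusted p = 0.00146, adjusted p = 0.373 by edgeR). The most 3′ site of Scn9a, chr3:52584507-52584508 (minus strand), had 16, 10, 7 and 7 reads against 18, 15, 36 and 21, a log2 fold change of 1.03 with an unadjusted p of 0.0647. An opposite-strand site of Scn9a at chr3:52638145-52638169 had a log2 fold change of 0.89 and a plus-strand site of Cacna1a at chr19:25689209-25689222 had 0.59, neither with an unadjusted p under 0.05.

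The lower sites that met the same rule were also 4, and 2 of them lay in the 3′ part of Cacng2. At chr7:119228907-119228921 the reads were 28, 26, 19 and 24 in control and 15, 5, 7 and 8 in obesity, a log2 fold change of -1.58 (SE 0.52, unadjusted p = 0.00815). At chr7:119229188-119229236 they were 31, 33, 21 and 21 against 7, 14, 13 and 5, a log2 fold change of -1.51 (SE 0.52, unadjusted p = 0.0116). Both sites were lower in all 4 obesity libraries than in any control. The main site of Cacng2, chr7:119229262-119229306, lies beside them and was singled out after its values were seen. It had 494, 303, 251 and 209 reads in control and 256, 125, 172 and 123 in obesity, so that the groups overlapped. Its log2 fold change was -1 (SE 0.33, unadjusted p = 0.00964) without the block and the value was -1.01 (unadjusted p = 0.000114, adjusted p = 0.197 by edgeR) with it. With the block the adjusted p was 0.00345 by DESeq2, and it was 0.0490 by edgeR without both libraries numbered 2. The other lower sites were in Scn3a, chr3:51581802-51581803, at -1.38 (SE 0.55, unadjusted p = 0.0255), and in Cacna1c, chr4:150777873-150777875, at -1 (SE 0.59, unadjusted p = 0.108).

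Use of sites relative to the rest of the gene was tested for the 31 channel genes with more than 1 site (edgeR's diffSpliceDGE, Simes p per gene). At an unadjusted p under 0.05 the count was 2, where 1.84% of all genes were called, and at an adjusted p of 0.1 it was 0, where 0.0121% were. These genes were Cacna2d2 (Simes value 0.0179) and Cacna1a (0.0309), and in both the leading site lay on the opposite strand. In Cacna2d2 the minus-strand site at chr8:116221861-116221863 drew 89 of 134 reads from obesity library 1. In Cacna1a the minus-strand site at chr19:25675751-25675752 drew 40 of 41 reads from the same library. On the own strand 0 of 31 genes had an unadjusted p under 0.05 without the block (1.39% of all genes did). Both calls were lost with the block, where Cacna2d2 had a Simes value of 0.150 and Cacna1a of 0.485. Instead Cacng5 (0.0358) and Scn2a (0.0415) were called with it, again 2 of 31 genes, where 3.08% of all genes were called. In Cacng5 and Scn2a most reads lay at 1 opposite-strand site.

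The genes of partner proteins were read from a list of channel-binding and related genes. Of the 40 in the table, 28 had a log2 fold change above 0 and the median was 0.22, beside 0.01 over all genes. At an unadjusted p under 0.05, 5 were higher and 0 lower without the block, where 2.77% of all genes were called higher. With the block 10 were higher and 2 lower, where 5.03% and 5.83% of all genes were, and none passed the adjusted threshold by edgeR. Of the 17 calcium channel partners 10 were above 0, with a median of 0.01, and 0 were called without the block, while 1 was called higher and 1 lower with it. The 13 sodium channel partners had a median of 0.17, with 10 above 0, and 2 were called higher without the block and 4 higher and 1 lower with it. The 2 HCN partners in the table had a median of 0.08 and 0 calls. Among the 8 leak and calcium-activated channel genes 7 were above 0, with a median of 0.45, and 3 were called higher without the block and 5 with it. Fam155a, a subunit of the sodium leak channel NALCN, had 1596, 1634, 1115 and 1715 CPM in control and 2486, 1670, 2010 and 2452 in obesity (log2 fold change 0.51, SE 0.20, unadjusted p = 0.0208). Unc79, of the same channel complex, was at 0.48 (SE 0.21, unadjusted p = 0.0401) and Kcnn3, a small-conductance potassium channel opened by calcium, at 0.72 (SE 0.29, unadjusted p = 0.0215). The sodium channel partners Fgf12 (0.42, SE 0.19) and the ubiquitin ligase gene Nedd4l (0.63, SE 0.29) were the other higher genes. Obesity library 2 was the lowest of its group for Fam155a, as it was for Cacna1a and Cacna1c.

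The promoters of the 4 genes called higher without the block are shown for what they share or do not share. RefSeq promoters (GRCr8, another build than that of the sites) matched 21 of the 33 genes. The 150 bases before the annotated start are printed 5′ to 3′ on the gene's strand, with each GC box (GGGCGG or its reverse complement CCGCCC, overlaps included) in capitals. The windows are chr19:40650469-40650618 for Cacna1a, chr4:154051749-154051898 for Cacna1c, chr16:5527550-5527699 for Cacna1d and chr16:4918900-4919049 for Cacna2d3, all on the minus strand.
Cacna1a: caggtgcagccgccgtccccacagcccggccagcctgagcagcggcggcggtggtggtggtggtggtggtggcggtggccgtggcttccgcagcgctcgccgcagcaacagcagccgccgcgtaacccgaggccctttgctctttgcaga
Cacna1c: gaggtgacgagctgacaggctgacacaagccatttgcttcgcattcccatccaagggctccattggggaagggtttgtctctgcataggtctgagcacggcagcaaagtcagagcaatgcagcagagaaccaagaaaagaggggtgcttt
Cacna1d: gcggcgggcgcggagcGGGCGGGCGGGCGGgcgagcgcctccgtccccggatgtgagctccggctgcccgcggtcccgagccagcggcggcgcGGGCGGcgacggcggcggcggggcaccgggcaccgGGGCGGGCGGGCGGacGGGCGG
Cacna2d3: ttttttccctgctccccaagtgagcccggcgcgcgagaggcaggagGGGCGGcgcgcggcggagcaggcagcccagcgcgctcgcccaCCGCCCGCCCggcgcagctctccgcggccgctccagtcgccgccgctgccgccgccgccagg

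Cacna1d has 8 GC boxes in this window and Cacna2d3 has 3, while Cacna1a and Cacna1c have 0. In the 250 bases before the start, 11 of the 21 channel promoters (52.4%) hold a GC box, against 32.4% of the 27457 RefSeq promoters. The motif TATAAA was found in 1 of 21 (13.1% of all promoters) and the cAMP response element TGACGTCA in 0 of 21 (1.70% of all). A match of letters is a description and does not show that a factor binds there.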

How the data were processed

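WTTS-seq libraries from the hypothalamus of 8 rats (4 per group) were read from a table of raw read counts per site that the authors deposited. Per the submitters' processing notes, reads were mapped with Bowtie2 2.2.3 to Rnor_6.0. How sites were called and assigned to genes is not given in the sources used here. A last line without a site, which repeats the total of control library 1, was left out. The labels name no molecular identifiers, so the counts are of PCR reads and not of molecules.

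Counts were tested at sites, and summed per gene identifier over all sites, with edgeR 4.0.16 in R 4.3.3 (TMM, robust quasi-likelihood test, Benjamini-Hochberg over the whole table). The threshold was an adjusted p of 0.1, and an unadjusted p of 0.05 served for description. Site use was tested with diffSpliceDGE. SE is the log2 fold change divided by the square root of F. CPM used the effective library sizes of the gene fit. DESeq2 1.42.0, other size factors, filterByExpr, left-out libraries and the replicate block were alternatives. The scripts were tested on simulated data with far larger changes than those of the channel genes. That test does not show what the fits can detect at the sizes reported here. Genes named by rule are the most read of each role, the 3 with the most sites and those with an unadjusted p under 0.05 in either fit. Other channel genes, among them Hcn4 and Cacng5, are also given singly, outside this rule. Sites named are up to 5 in each direction with the smallest p among those with groups that do not overlap and a mean of 10 or more normalized reads, and, for site use, the 5 genes with the smallest Simes p. Members, lists and tests were chosen with earlier results of these data known, and the own-strand sums were added after seeing the data.

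The replicate numbers come from the titles. Over 8341 genes with a mean of 10 or more CPM, deviations from the group means correlated at 0.272 to 0.395 between libraries of the same number and at -0.228 to 0.0936 between other numbers. The own strand of a gene came from RefSeq for 20 channel genes, turned where at least 15 of 20 neighbouring genes had the other orientation, and from the strand with most reads for 13. Some channel genes stay in the counts and fits but are not reported singly here.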

Additional observations from a re-analysis of the deposited data

Results flagged for a closer look

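In 46 checks of a group of 4 libraries, over the named genes and sites, 5 had 1 library far from the other 3 (Dixon's ratio above its 95% critical value), where about 2 are expected by chance at 1 in 20. Cacna1e was low in control library 1 (383 CPM, others 448 to 460) and in obesity library 2 (393, others 498 to 515). Cacna2d2 was low in control library 2 (127, others 241 to 255). The opposite-strand Scn9a site at chr3:52638145-52638169 was high in control library 2 (9.78 CPM on the site scale, others 5.14 to 5.63), and the Scn3a site at chr3:51581802-51581803 was high in obesity library 2 (4.85, others 3.92 to 4.05). Of the 5, 2 were obesity library 2 and 2 were control library 2, and the cause was not tested.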

How the results depend on the processing

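By edgeR with 4 libraries a group, with or without block, none of the 33 genes or 517 sites passed an adjusted p of 0.1. The number of calls at an unadjusted p under 0.05 changed when single libraries were left out. Leaving out 1 library moved the 4 genes to between 0 and 5 (0 without control library 3, obesity library 1 or obesity library 4, 1 without control library 1, 2 without obesity library 3), the 19 sites to between 16 and 30 (30 without obesity library 2) and the 2 genes of changed site use to between 0 and 5 (5 without obesity library 2, 0 without control library 3 or 4 or obesity library 1). The replicate block gave 8 genes and 36 sites, and 8 genes also with own-strand sites. DESeq2 with the block gave 7 genes and 30 sites, and adjusted calls for 2 genes (Scn2b and Cacng7) and 3 sites (in Cacng2, Scn2b and Scn2a). With the block and without both libraries numbered 2, 7 genes and 40 sites were called and 5 genes and 3 sites passed the adjusted p of 0.1: Cacna1a (0.0157), Cacna1c (0.0157), Cacna2d3 (0.0495), Cacng7 (0.0177) and Scn2b (0.00155), with the sites in Scn2b (0.0109), Cacna1a (0.0139, opposite strand) and Cacng2 (0.0490). For DESeq2 and for this fit the shares of all genes and sites called are not given here, so these counts have no background beside them. Without both numbered 1 there were 35 sites, and without both numbered 3 there were 7 genes. filterByExpr left 10 sites and 0 genes of changed site use. Site use gave 0 genes on the strand with most reads and on the own strand, 1 on the own strand with the block, and with the block 1, 4, 0 and 0 genes without the libraries numbered 1, 2, 3 and 4. In site use the block lost Cacna2d2 and Cacna1a and gained Cacng5 and Scn2a. Of the genes named by rule and the sites named for separate groups, 399 values kept their direction and side of the adjusted threshold. Another 7 came to pass it and 10 changed sign. The sites of Cacng2, Scn2b, Scn2a and Cacna1a given above with adjusted calls are not in this tally. Cacna2d1 turned to -0.071 and -0.053 with the block and without the libraries numbered 1 and 4, and ran from -0.13 to 0.15 without 1 library. Hcn2 turned to 0.080 with the block and without the libraries numbered 4, and ran from -0.19 to 0.076 without 1 library. Scn2a ran from -0.50 to 0.15 without 1 library, above 0 only without control library 2. The cause was not tested. A site of 30 to 60 reads in all limits what a single site can show.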
